A study of Mus musculus with 15 samples.

Results

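The cytosolic ribosomal protein genes were examined here as a group in mouse prostate epithelial organoids. They were taken by symbol, as all genes named Rpl, Rps, Rplp or Rpsa with the numbering of the large and small subunit proteins and their close copies, with Rpl29 left out. This gave 83 of 21886 genes in the table of RPKM values (reads scaled to gene-model length and library depth), of which 52 belong to the large subunit and 31 to the small subunit. In the table of counts it gave 81 of 14301 genes, 50 large and 31 small, since Rpl10l and Rpl39l were not among its rows. Rps3a1, the symbol under which mouse eS1 is listed, Rack1 and the fusion gene Fau do not follow the naming and are given apart.

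The cytosolic ribosome reads mRNA with its small subunit and joins amino acids with its large subunit, and each subunit is built in the nucleolus from ribosomal RNA and proteins made in equal amounts. The mRNAs of these proteins are short and abundant, and in mammals they start with a run of pyrimidines, the 5-prime terminal oligopyrimidine (TOP) tract, through which growth signals adjust their translation. Proteins made in excess of ribosomal RNA are degraded. In epithelia the whole set is known to follow the rate of cell growth.

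RNA was sequenced from organoids of C57BL/6 mice in 6 groups of 2 libraries. In 4 groups, from 3-month-old mice, the controls had neither deletion, and the others had lost Setd2, whose product trimethylates histone H3 at lysine 36, Ezh2, the methyltransferase of the Polycomb complex PRC2, or both genes (double null). The labels give the cells as prostate epithelial and mark the deletions PC without spelling it out. In the other groups, from 2-month-old mice, Ezh2 was wild type or carried the K735R change of a lysine to an arginine. All 6 groups shared a further alteration, and the 2-month groups differed from the 3-month groups in it as well as in age, so the 2 tables were compared only within themselves. Each 3-month library was an equal-mass pool of RNA from 3 biological replicates, and the pool size of the 2-month libraries is not stated in the labels, so p-values reflect how far pooled libraries of a group lie apart, which may be technical.

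Reads on listed genes ranged from 29686148 to 34880981 in control and Setd2 null, from 46915838 to 54231090 in Ezh2 null and double null, and from 28831228 to 37482322 in the 2-month groups. Depth thus moved with Ezh2 genotype in the 3-month groups, and its part in the results below was not tested. The control libraries held 17 and 16.1 RPKM of Setd2 and the Setd2 null libraries 8.75 and 10.3 (limma adjusted p = 0.0563), and Ezh2 went from 19.4 and 20.8 RPKM to 13.8 and 11.6 on its deletion (limma adjusted p = 0.00414). A gene-level value still counts transcripts that lack a deleted exon. All 10 prostate epithelial markers on the list used here were above 0 in every library, with a summed level of 5494 to 7696 RPKM. In Ezh2 null against control 3 of the 10 rose and 3 fell, among them Hoxb13, a homeobox factor of the prostate, which was higher (log2 fold change 1.93), and Epcam, an epithelial adhesion protein, which was lower (−1.81). The 9 fibroblast and muscle markers summed to 2.16 to 4.24 RPKM in control and Setd2 null and to 29.3 to 34.3 RPKM in Ezh2 null and double null. Of the 9, 8 were above 0 in every library. Only 4 were tested, and the filter, a mean of 1 RPKM over the 8 libraries, favoured markers high in Ezh2 null and double null. That all 4 were called higher in Ezh2 null therefore adds no support. The 7 immune markers summed to 21.9 to 39.6 RPKM in the former and 13.2 to 14.9 RPKM in the latter, with none at 0 in every library. Of the 2 immune markers tested, Cd68 fell by 2.18 in Ezh2 null against control and Lyz2 rose by 3.16. Lyz2 rose from near the floor, with a log2 fold change of 0.0 in Setd2 null against control. It met the filter through the groups where it was high. In the same groups the sums of the 5 endothelial markers were 0.546 to 0.664 and 1.97 to 3.18 RPKM. In the 2-month groups the fibroblast and muscle markers summed to 14.9 to 18.8 CPM with wild-type Ezh2 and 5.89 to 10.9 with K735R, with Col1a2 at 0. The part of these cells in the results was not tested, and in bulk RNA a change in cell make-up and a change in RNA per cell cannot be told apart.

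The starts of these genes are shown first, because the TOP tract and the promoter are what the set is known to share. RefSeq promoter sequences of build GRCm38.p6 (mm10) were matched for 64 of the 83 genes. Shown are the 3 genes of each subunit that rose most in Ezh2 null (Rpl18, Rpl13a, Rpl13, Rps26, Rps2 and Rps9), Rpl26, the only one called lower, and Rpl39, the lowest of those not called. Each line runs 5′ to 3′ on the gene's strand from 50 bases before the annotated start to 30 bases from it, and capitals mark the longest run of C and T that touches the 5 bases on either side of the start.
Rpl18, chr7:45718021-45718100, plus strand: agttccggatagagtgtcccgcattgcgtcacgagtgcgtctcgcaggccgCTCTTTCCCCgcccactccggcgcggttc
Rpl13a, chr7:45128716-45128795, minus strand: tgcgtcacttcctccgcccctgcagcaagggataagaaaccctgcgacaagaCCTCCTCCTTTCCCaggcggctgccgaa
Rpl13, chr8:123102300-123102379, plus strand: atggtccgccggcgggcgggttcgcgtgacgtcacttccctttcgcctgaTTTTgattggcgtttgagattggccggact
Rps26, chr10:128626477-128626556, minus strand: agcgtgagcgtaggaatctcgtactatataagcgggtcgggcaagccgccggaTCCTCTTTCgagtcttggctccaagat
Rps2, chr17:24720013-24720092, plus strand: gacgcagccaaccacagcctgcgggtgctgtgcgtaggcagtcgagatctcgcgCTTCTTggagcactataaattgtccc
Rps9, chr7:3703991-3704070, plus strand: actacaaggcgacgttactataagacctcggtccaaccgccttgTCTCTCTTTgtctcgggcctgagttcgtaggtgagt
Rpl26, chr11:68901516-68901595, plus strand: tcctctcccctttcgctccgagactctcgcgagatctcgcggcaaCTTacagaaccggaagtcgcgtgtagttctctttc
Rpl39, chrX:37085193-37085272, minus strand: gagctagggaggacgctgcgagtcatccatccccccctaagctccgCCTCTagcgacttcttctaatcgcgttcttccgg

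Runs of 9 to 14 pyrimidines lay at the annotated starts of Rpl18, Rpl13a, Rps26 and Rps9, 6 at Rps2, 5 at Rpl39, 4 at Rpl13 and 3 at Rpl26. A run of at least 8 touched the start in 22 of the 64 matched genes (34.4%), against 9.25% of 27025 promoters of all genes. The motif CCGGAAG, the core bound by ETS factors and searched on both strands of the 300-base window, was in 37.5% of the matched ribosomal protein genes and 9.16% of all promoters. CTCTTTCC was in 14.1% against 3.02%, GGGCGG in 59.4% against 35.9%, AAGATGGC in 9.38% against 2.86% and TATAAA in 12.5% against 14.2%. CTCTTTCC is itself a run of 8 pyrimidines, so its matches overlap with the runs where both lie at the start. Among the 39 matched genes called higher in Ezh2 null, 43.6% held CCGGAAG and 38.5% a run of at least 8. Among the 21 tested but not called higher, 28.6% held CCGGAAG and 28.6% a run of at least 8. These are matches of letters at annotated starts, and the starts used in the organoids were not measured.

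Ribosomal protein mRNAs were among the most abundant mRNAs of the organoids. Of the 83 genes, 79 reached a mean of 1 RPKM over the 8 libraries of the 3-month groups and were tested. Their mean levels ran from 33.4 to 1743 RPKM with a median of 547, against a median of 10.7 RPKM over the 11338 genes tested, and 76 of the 79 stood at 100 RPKM or more, as did 5.1% of all genes tested. The subunits were alike in level, with medians of 542 RPKM for the large and 585 for the small subunit. The 4 genes that were not tested, all of the large subunit, stood near 0 in each library. Rpl10l was listed at 0 in all 8 libraries, Rpl39l in 7 of them, and Rpl3l and Rpl32l reached at most 0.268 and 0.614 RPKM. These are copies of Rpl10, Rpl39, Rpl3 and Rpl32, and the parent genes were at means of 1018, 570, 726 and 1136 RPKM.

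The highest levels per length were those of Rpl41, which encodes the smallest protein of the ribosome, at a mean of 1743 RPKM, of the stalk protein gene Rplp1 at 1729 and of its anchor Rplp0 at 1348. In the small subunit they were those of Rps26 (1116 RPKM), which sits at the mRNA exit channel, Rps2 (1111), at the mRNA entry, and Rps18 (1088), in the head. The lowest tested level was that of Rpl7l1, a copy of Rpl7 that acts in ribosome assembly, at 33.4 RPKM. The lowest of the small subunit were Rps15a (53.2 RPKM), Rps27l (80.3) and Rps20 (134). Length sets part of this order. The gene-model lengths recovered from the RPKM values ran from 390 to 5136 bases with a median of 780, and the longest were those of Rps15a (5136) and Rps20 (3446). Scaled to depth alone, in the unit of CPM (counts scaled to library size), Rps15a stood at 279 and Rps20 at 473, against 511 for Rps26. In the 2-month counts Rps15a averaged 272 CPM and Rps20 454. There, where no length enters, Rplp0 (1763 CPM), Rpl4 (1123) and Rpl3 (1009) were highest in the large subunit and Rps2 (1210.0), Rpsa (1203) and Rps4x (804) in the small.

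The share of reads on ribosomal protein genes was higher with Ezh2 deleted. The 2 control libraries had 3.37% and 3.01% of reads on listed genes there and the Setd2 null libraries 4.26% and 3.23%. The Ezh2 null libraries had 4.47% and 4.84%, and the double null libraries 5.002% and 5.58%. Among the 2-month groups the wild-type libraries had 4.2% and 3.37% and the K735R libraries 3.71% and 3.83%. The Ezh2 null and double null libraries lay above all control and Setd2 null libraries, the first Setd2 null library lay well above the other, and the K735R libraries lay between those of wild-type Ezh2. Counting error was small beside these gaps, with 95% Wilson intervals no wider than 0.00732 percentage points on either side, which cover counting error only. With 2 libraries a group an exact permutation test of such a share cannot reach 0.05. The subunits moved together, from 1.98% ± 0.156 (SD, n = 2) of reads in control to 2.86% ± 0.170 in Ezh2 null for the large subunit, and from 1.21% ± 0.105 to 1.79% ± 0.0919 for the small.

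**Figure D1:**
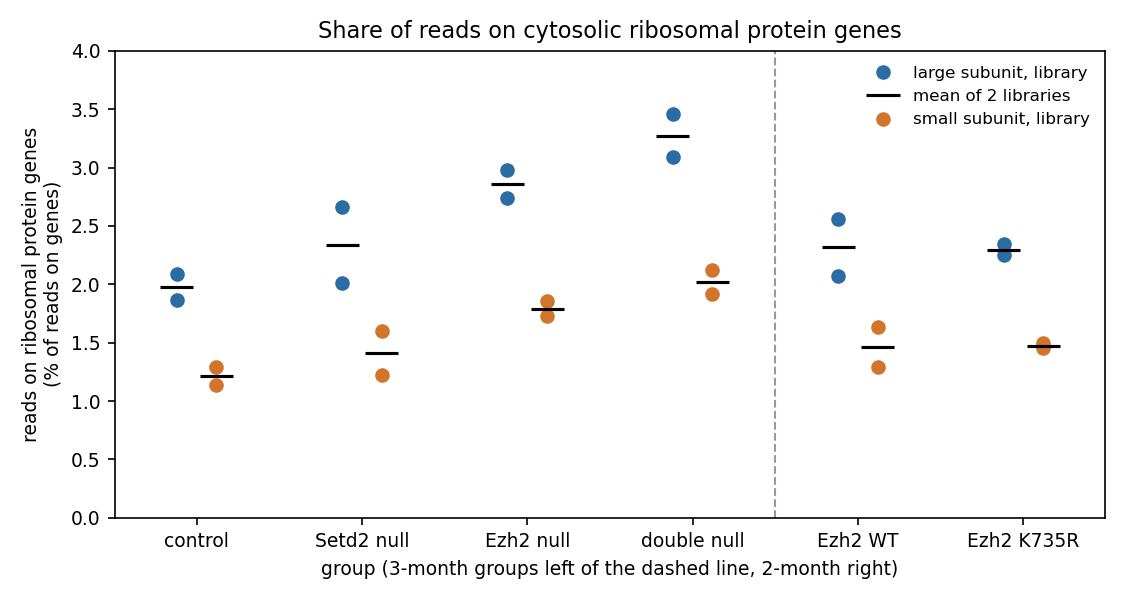
Share of reads on cytosolic ribosomal protein genes in each RNA library, as a percentage of reads on listed genes, for the large (blue) and small (orange) subunit, with black lines at the mean of the 2 libraries of a group. For both subunits every Ezh2 null and double null point lies above the control and Setd2 null points, and the 2 Setd2 null libraries lie apart.

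Within groups most genes of the set moved in the same direction between libraries. In the first library of Setd2 null 78 of 79 genes were higher than in the second, with a median difference of 0.39 on the log2 scale against 0.02 over all genes tested. In control 78 of 79 were higher in the first library (median 0.16, against −0.0015 over all genes tested). With wild-type Ezh2 77 of 79 were (median 0.23, against 0.0006). The second library was the higher in Ezh2 null for 57 genes, in double null for 62 and in K735R for 65. Against these, 22, 17 and 14 genes were higher in the first library. The medians for the first library minus the second were −0.09, −0.15 and −0.06, and over all genes tested −0.0031, 0.0049 and 0.0005. Rps14, a protein of the small subunit platform, differed most in Ezh2 null (910.0 and 1398 RPKM) and in double null (998 and 1552 RPKM). Across the 79 genes the difference between the 2 libraries in Ezh2 null and the same difference in double null had a Pearson correlation of 0.96, a description across genes, which are not independent replicates. With wild-type Ezh2, Rpl26 went against the rest and was higher in the second library (188 and 309 CPM).

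**Figure D2:**
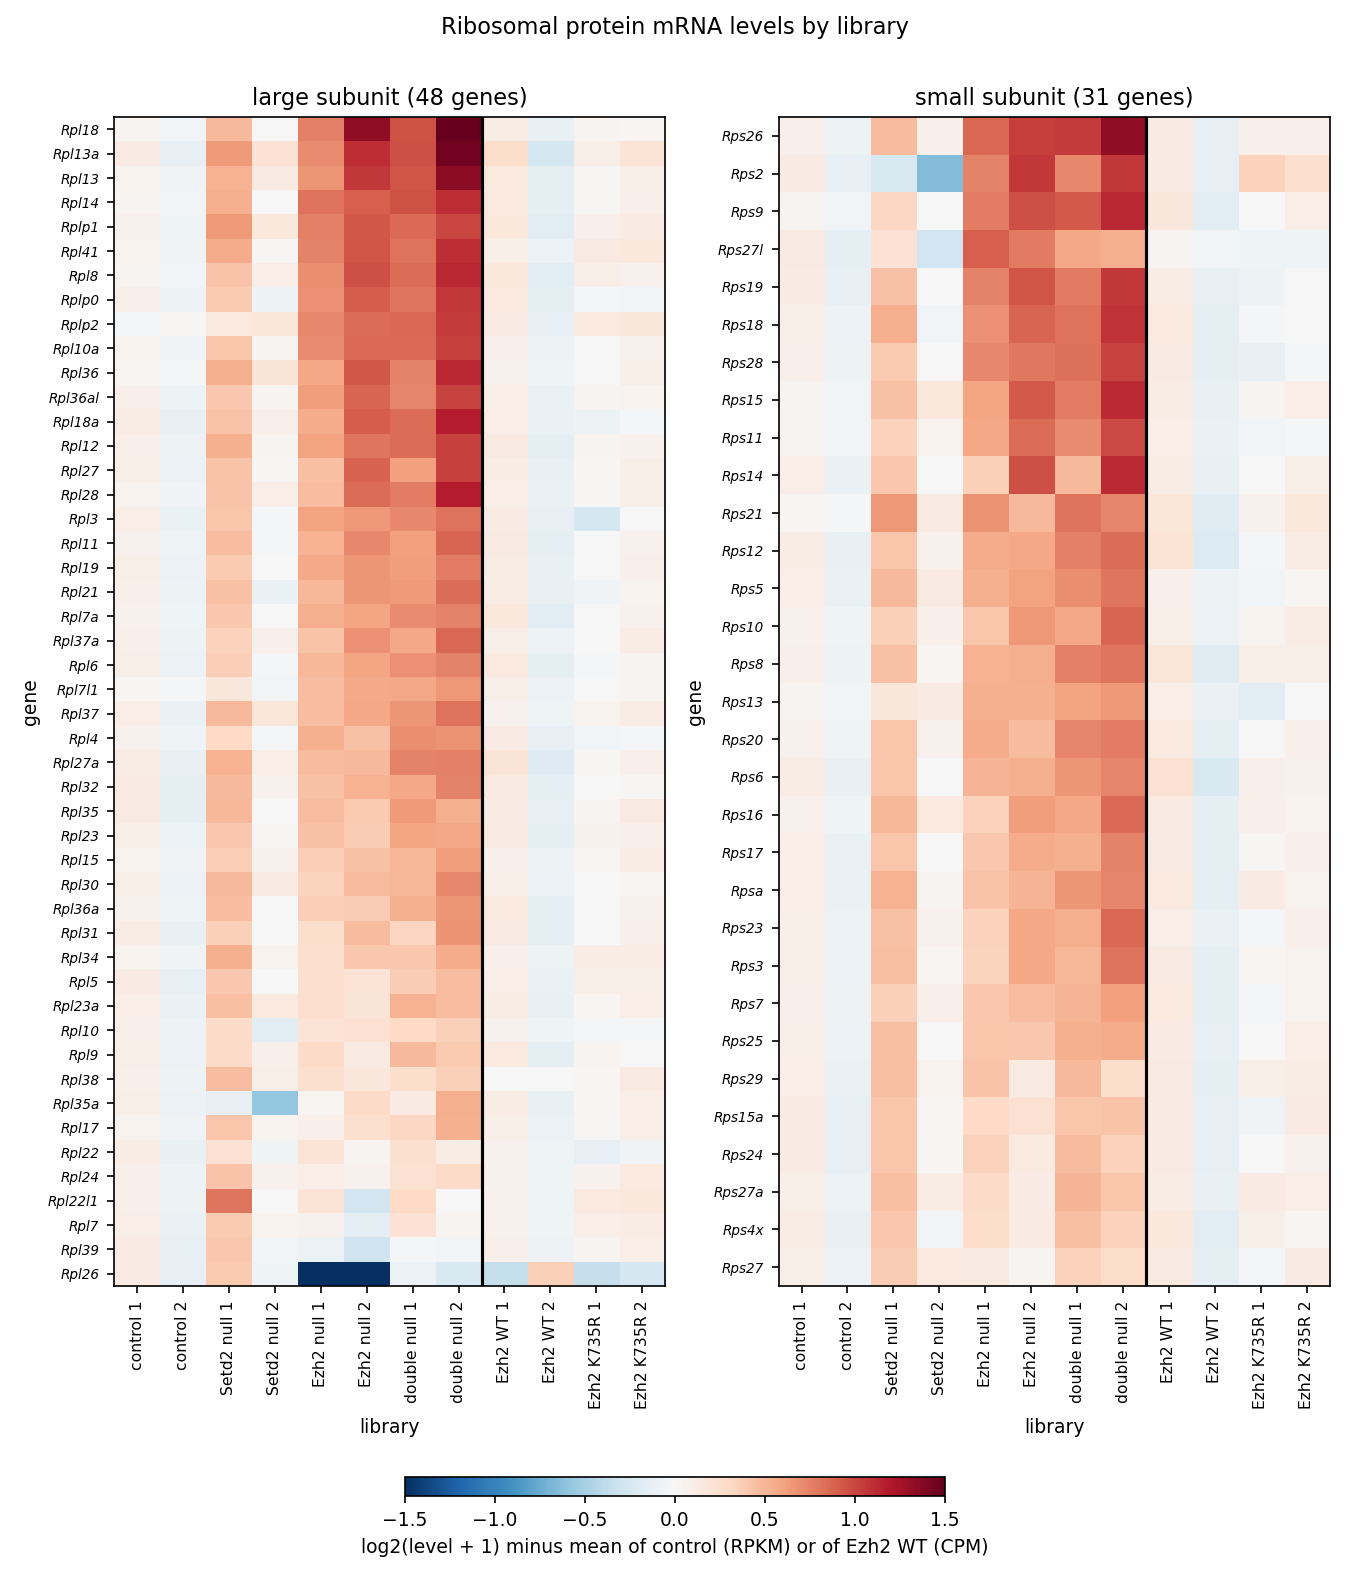
Levels of the 79 tested ribosomal protein genes (rows, large subunit left, small subunit right, ordered by their fold change in Ezh2 null) in the 12 RNA libraries (columns), as log2(level + 1) minus the mean of the control libraries for RPKM or of the wild-type Ezh2 libraries for CPM. Ezh2 null and double null columns are red in most rows, the first Setd2 null column is redder than the second, and Rpl26 is blue in Ezh2 null.

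Ezh2 null was set against control to measure Ezh2 loss with Setd2 intact. Most ribosomal protein mRNAs were higher. With limma, 51 of the 79 tested genes rose at an adjusted p under 0.05, 30 of 48 in the large and 21 of 31 in the small subunit, and 1, Rpl26, fell. Over all genes tested 36.1% were called higher and 20.5% lower, so the 64.6% of ribosomal protein genes called higher stood above the background of this comparison and the 1 called lower below it. For 71 of the 79 (89.9%) both Ezh2 null libraries lay above both control libraries, as they did for 50.9% of all genes tested. The median log2 fold change was 0.52 (1.43-fold), 0.52 in the large and 0.53 in the small subunit, against a median of 0.18 over all genes, which left 0.34 relative to it.

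That count depended on scaling. Median-ratio scaling, which brings the median of all genes to 0.01, left 25 genes higher and 1 lower, and 31.6% called higher is near the 27.2% of all genes called higher with it. A count test on the recovered reads (edgeR with TMM scaling) called 27 higher and 1 lower of 81, 33.3% against 27.3% of all genes, and quantile normalization called 46 higher and 2 lower, 58.2% against 28.1%. The split of all genes was 4096 higher and 2320 lower in RPKM and 3077 higher and 3103 lower with median-ratio scaling. The median of the ribosomal protein genes relative to all genes was 0.33 with median-ratio scaling, 0.27 in the count test and 0.36 with quantile normalization. Without control 2 limma called 18 genes higher, 22.8% against 27.9% of all genes, so that the set then stood below the background. Without Ezh2 null 2 it called 23, 29.1% against 29.1% of all genes, and without control 1 it called 33, 41.8% against 27.2%. The genes called higher under all 13 settings and left-out libraries were 17, among them Rpl18, Rpl13, Rplp1, Rplp2, Rps26, Rps2 and Rps9.

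Rpl18, a protein of the large subunit surface, stood at 356 and 334 RPKM in control and at 582 and 869 in Ezh2 null. Both Ezh2 null libraries were above both controls, and the gap between them was wide, and the log2 fold change was 1.04 (SE 0.248, limma adjusted p = 0.00558). Rpl13a, whose protein is known to be released from the ribosome to silence certain inflammatory mRNAs, stood at 662 and 555 RPKM in control and 994 and 1311 in Ezh2 null (0.91 ± 0.224, limma adjusted p = 0.00653, and 0.0604 under the setting that lost it). Rpl13 stood at 713 and 658 RPKM in control and at 1084 and 1429 in Ezh2 null (log2 fold change 0.86). In the small subunit Rps26 rose from 727 and 656 RPKM to 1255 and 1422, by 0.95 on the log2 scale (SE 0.18, limma adjusted p = 0.00157). Rps2 rose from 877 and 743 RPKM to 1358 and 1688 (log2 fold change 0.91) and Rps9, which helps keep decoding accurate, from 308 and 291 to 509 and 587 (0.87). For these 5 genes as well the groups did not overlap.

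Of the stalk of the large subunit, which recruits the translational GTPases, all 3 genes rose. Rplp0 went from 986 and 882 RPKM in control to 1496 and 1747 in Ezh2 null, Rplp1 from 1198 and 1092 to 1931 and 2186, and Rplp2 from 373 and 382 to 625 and 677. All 3 passed, with log2 fold changes of 0.79, 0.84 and 0.78, which others of the large subunit exceeded, such as Rpl18 (1.04) and Rpl13a (0.91). In double null against Setd2 null all 3 were called higher too, and there the call on Rplp1 was lost under 7 of 12 alternatives. Of the pair that carries 5S ribosomal RNA into the ribosome and can bind the ubiquitin ligase Mdm2, Rpl11 rose (413 and 375 to 565 and 651 RPKM, log2 fold change 0.62, limma adjusted p = 0.0179) and Rpl5 did not pass (336 and 285 RPKM against 369 and 358, 0.23, adjusted p = 0.259). The call on Rpl11 was lost under 5 of 12 alternatives, with adjusted p up to 0.113. Of 8 proteins that line or surround the exit tunnel, 1 rose (Rpl19, log2 fold change 0.61) and Rpl26 fell, where 36.1% of all genes rose and 20.5% fell, and their median was 0.19.

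Copies and their parent genes are given side by side. Of 4 tested copies 3 rose, and of 9 parent genes 1 rose and 1 fell, where 36.1% of all genes rose and 20.5% fell. Rps27l, a copy of Rps27 known as a target of the p53 pathway, stood at 66.8 and 55.2 RPKM in control and at 114 and 105 in Ezh2 null (log2 fold change 0.84 ± 0.176 SE, limma adjusted p = 0.00274). Its parent Rps27 stood at 339 and 299 against 349 and 328 RPKM (0.09, adjusted p = 0.614). Rpl36al rose from 187 and 169 to 275 and 326 RPKM (0.75), with Rpl36a at 278 and 252 against 341 and 346 (0.37, adjusted p = 0.0815), and Rpl7l1 rose from 27.1 and 25.8 to 36.9 and 39.8 RPKM (0.52), with Rpl7 at 1032 and 903 against 1011 and 871 (−0.04, adjusted p = 0.85). The exception among the copies was Rpl22l1, at 132 and 119 RPKM in control and 144 and 102.5 in Ezh2 null (−0.04), and its parent Rpl22 did not pass either (105 and 90.4 against 113 and 100.1 RPKM, 0.12). Rpl3 was the parent that rose (577 and 499.6 to 818 and 844 RPKM, 0.63). Rpl10, Rps4x and Rpl39 did not pass, with log2 fold changes of 0.21, 0.20 and −0.20. Quantile normalization called Rpl39 lower (−0.38, limma adjusted p = 0.0348). The difference between copies and parents was not tested.

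Rpl26, a protein at the exit tunnel that is also known to bind the p53 mRNA, was the exception in direction. It lies on chromosome 11 from 68901566 to 68904534 on the plus strand in mm10, where the control libraries held 702 and 593 RPKM and the Setd2 null libraries 845 and 616. The Ezh2 null libraries held 220.0 and 225 RPKM, and the double null libraries 605 and 552. Only the Ezh2 null libraries were low, and they overlapped with no other. Against control it fell by 1.53 on the log2 scale (± 0.175 SE, limma adjusted p = 7.146e-05, and at most 0.00174 over the alternatives). RefSeq lists 6 Rpl26 pseudogenes, and how reads shared between copies were divided is not given in the sources used here, so its level is uncertain and a difference in the assignment of reads was not tested.

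Double null was set against Setd2 null to measure Ezh2 loss with Setd2 deleted, in 4 libraries that the previous comparison did not use. Here 43 of 79 ribosomal protein genes rose, 27 of 48 in the large and 16 of 31 in the small subunit, and 0 fell, against 35.6% of all genes called higher and 19.4% lower. The median log2 fold change was 0.49 against 0.18 over all genes, and without Setd2 null 2 it was 0.29, so that the excess over all genes went from 0.31 to 0.11. Of the 43 genes, 42 had also been called higher in Ezh2 null against control, which is 97.7% of the 43 and 82.4% of the 51. The same overlap was not counted over all genes, so it is not shown to be particular to this set. Both comparisons also took their estimate of spread from 1 fit. Deviations of same-numbered Ezh2 null and double null libraries correlated at 0.933 over the genes tested, so the comparisons are not independent. Across the 79 genes the fold changes of the 2 comparisons had a Pearson correlation of 0.86 and a Spearman correlation of 0.93.

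**Figure D3:**
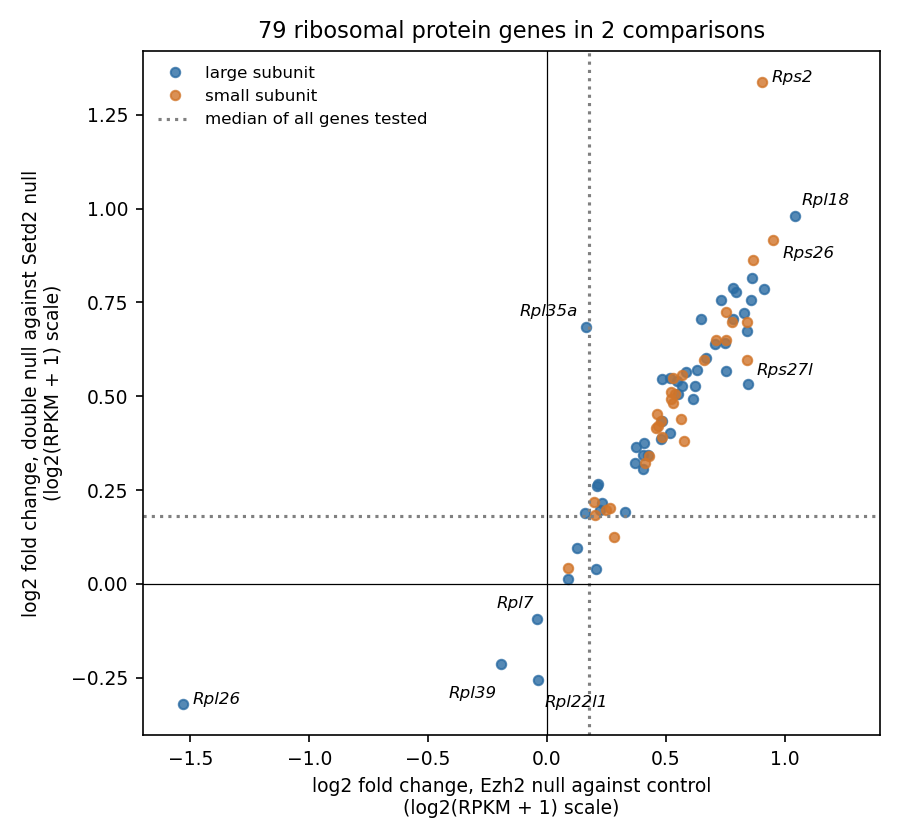
Log2 fold change of each of the 79 tested ribosomal protein genes in Ezh2 null against control (horizontal) and in double null against Setd2 null (vertical), on the log2(RPKM + 1) scale, with dotted lines at the medians of all genes tested (0.18 and 0.18). Most points lie above both medians along 1 band, Rpl26 lies far to the left of it, and Rps2 and Rpl35a lie above it.

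Rps2 changed most here. It stood at 683 and 515 RPKM in Setd2 null, below both controls, and at 1335 and 1686 in double null, close to Ezh2 null, and rose by 1.34 ± 0.2 SE on the log2 scale (limma adjusted p = 0.000412). RefSeq lists 12 Rps2 pseudogenes, counted in the same way, so its level carries the same uncertainty as that of Rpl26. So do the levels of other genes of the set with such entries, such as Rpl13 with 6 and Rpsa with 12. Rpl18 rose from 483 and 345 to 669.6 and 970.2 RPKM (0.98), Rps26 from 959 and 730.1 to 1434 and 1743 (0.92), Rps9 from 373 and 301 to 569 and 655 (0.86), Rpl13 from 987 and 753 to 1319 and 1744 (0.81) and Rplp2 from 418 and 430.1 to 687 and 782 (0.79). In each of these the groups did not overlap. Rpl35a was the 1 of the 43 not called in Ezh2 null against control. The controls held 339 and 301 RPKM of it, Setd2 null 294 and 213, Ezh2 null 327 and 391, and double null 347 and 468, and it rose by 0.68 here (limma adjusted p = 0.0170) against 0.16 there (adjusted p = 0.511). The interaction of the deletions did not pass for Rpl35a (log2 difference 0.52, adjusted p = 0.655) or for Rps2 (0.43, adjusted p = 0.799).

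This count moved more than the first. Median-ratio scaling called 15 higher and 1 lower, 19.0% higher against 25.8% of all genes, so that the set then stood below the background. The count test on recovered reads called 19 higher and 2 lower of 81 (23.5% against 26.4% of all genes), and quantile normalization 35 higher and 3 lower (44.3% against 25.9%). The set also stood below the background without double null 2, where limma called 9 genes higher (11.4% against 27% of all genes), and without Setd2 null 2, where it called 13 (16.5% against 31.4%). Without Setd2 null 1, the library with the high ribosomal protein level, limma called 62 (78.5% against 32.9%). Called higher under all 13 settings were 8 genes, Rpl10a, Rpl14, Rpl7l1, Rplp2, Rps2, Rps26, Rps28 and Rps9.

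**Figure D4:**
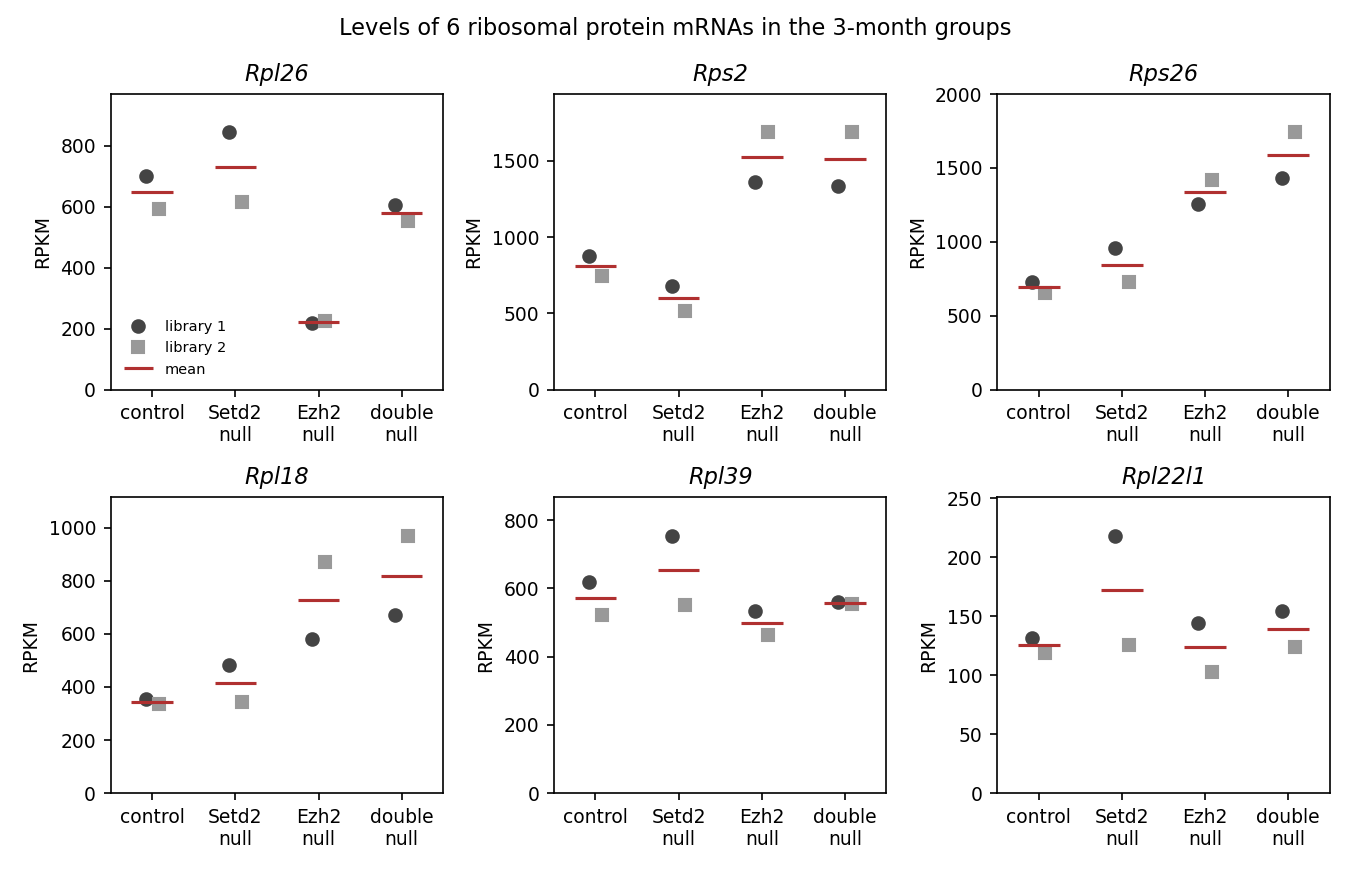
RPKM of 6 ribosomal protein mRNAs in the 3-month groups, with circles and squares for libraries 1 and 2 and a red line at their mean. Rpl26 is low in Ezh2 null alone, Rps2, Rps26 and Rpl18 are high in both groups without Ezh2, and Rpl39 and Rpl22l1 are highest in the first Setd2 null library.

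Setd2 null was set against control to measure Setd2 loss with Ezh2 intact. No ribosomal protein gene passed limma's test, with 1.07% of all genes called in either direction, and the count test on recovered reads called 0. At an unadjusted limma p under 0.05 there were 0 of the 79, against 1313 of the 11338 genes tested. Log2 fold changes were positive for 76 genes, with a median of 0.23 against −0.02 over all genes. This rested on 1 library, since the median was 0.04 without Setd2 null 1 and 0.42 without Setd2 null 2. Both Setd2 null libraries lay above both controls for 22 genes (27.8%, against 18.5% of all genes tested) and below them for 2 (2.53%, against 23.7%). The smallest p were those of Rps2 (log2 fold change −0.44 ± 0.2 SE, limma adjusted p = 0.435), Rps21 (0.39, adjusted p = 0.448), which stood at 359 and 343 RPKM in control and 553 and 385 in Setd2 null, and Rplp1 (0.40, adjusted p = 0.454). Rps2 and Rpl35a were the 2 genes with both Setd2 null libraries below both controls. Rpl22l1, a copy known to rise when Rpl22 is lost, stood at 218 RPKM in Setd2 null 1 and at 126 in Setd2 null 2, the widest gap of that group.

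Double null was set against Ezh2 null to measure Setd2 loss with Ezh2 deleted. Of 79 genes 1 passed, Rpl26, which rose by 1.37 on the log2 scale (± 0.175 SE, limma adjusted p = 0.0014, between 0.00134 and 0.0107 over the alternatives), against 6.49% of all genes called in either direction. The other 78 did not pass, with a median for all 79 of 0.17 against −0.02 over all genes. That median was 0.09 without double null 2 and 0.06 with quantile normalization. Both double null libraries lay above both Ezh2 null libraries for 41 genes (51.9%, against 19.5% of all genes tested). Rps27l was the 1 with both below (91.5 and 89.2 against 114 and 105 RPKM, log2 fold change −0.28, adjusted p = 0.568).

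The interaction tests whether the effect of Ezh2 deletion differed with Setd2 intact and deleted. It was called for 1 of 79 genes, again Rpl26 (log2 difference 1.21 ± 0.248 SE, limma adjusted p = 0.0351), against 2.59% of all genes called in either direction. The fall of Rpl26 on Ezh2 loss was 1.53 with Setd2 intact, and with Setd2 deleted its log2 fold change was −0.32 (adjusted p = 0.149). That second effect was called lower with median-ratio scaling (−0.51, limma adjusted p = 0.0320), with quantile normalization (−0.54, 0.00778), in the count test on recovered reads (−0.52, edgeR adjusted p = 0.0235) and without Setd2 null 2 (−0.55, limma adjusted p = 0.0197). The interaction call was lost without a filter on low values (adjusted p = 0.0779) and without any 1 of 7 of the 8 libraries (adjusted p 0.0521 to 0.192), and it was kept without Setd2 null 1 (0.0151). The other 78 genes did not pass, with a median difference of −0.05 over all 79. The sign of that median rested on single libraries, since it was 0.15 without Setd2 null 1 and −0.24 without Setd2 null 2, and also above 0 without control 2 (0.04) and without double null 1 (0.02).

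The comparison of K735R with wild-type Ezh2 in the 2-month groups found no called gene among the 79 tested. edgeR's quasi-likelihood test called 0 of them, with 0.00757% of all genes called in either direction, and DESeq2 and limma on log2 CPM also called 0. At an unadjusted edgeR p under 0.05 there were 0 of the 79, against 1220 of the 13203 genes tested. The median log2 fold change was 0.04, between −0.35 for Rpl26 and 0.30 for Rps2, against −0.01 over all genes. Its sign rested on the wild-type libraries, with 0.17 without Ezh2 WT 1 and −0.07 without Ezh2 WT 2, and without TMM factors the median was −0.0047. The smallest p were those of Rps2, whose wild-type libraries held 1182 and 991 CPM and K735R libraries 1381 and 1287 (edgeR adjusted p = 0.603), Rpl22l1, at 126 and 115 against 133.5 and 133.8 (log2 fold change 0.15, adjusted p = 0.648), and Rpl26, at 188 and 309 against 189 and 201 CPM (adjusted p = 0.718). For Rps2 and Rpl22l1 the groups did not overlap, and both K735R libraries lay above both wild-type libraries for 7 of the 79 genes (8.86%, against 20.3% of all genes tested), and for Rpl26 only the second wild-type library was high. Without Ezh2 WT 1 the log2 fold changes were 0.43 for Rps2, 0.41 for Rpl13a and −0.66 for Rpl26, the genes of the set that edgeR then called. In neither direction was the share called larger in the set than over all genes. The lone wild-type library is then assumed to vary like the K735R group. Rplp0 of the stalk was at 1964 and 1606 CPM in the wild-type libraries against 1750.1 and 1733, and the copies Rps27l (155 and 146 against 143 and 143 CPM) and Rpl36al (109 and 95.9 against 105 and 106) did not pass.

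Ribosomal proteins named outside the rule were given the same tests. Rack1, on the small subunit head, rose by 0.49 in Ezh2 null against control and by 0.43 in double null against Setd2 null, and Fau, which encodes eS30, did not pass (0.57 and 0.53, adjusted p = 0.0667 and 0.0886). Rps3a1 did not follow them. The controls held 792 and 691 RPKM of it, Setd2 null 637 and 252, Ezh2 null 780.4 and 732, and double null 511 and 581. The wild-type libraries of the 2-month groups held 813 and 692 CPM and the K735R libraries 242 and 243, where the log2 fold change of −1.63 had an edgeR adjusted p of 0.188. Rpl29 also left the pattern of the set, with log2 fold changes of −2.85 in Setd2 null against control, 1.59 in Ezh2 null against control and −3.17 in K735R against wild-type Ezh2.

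Other genes of ribosome production and translation were described by count, to be read against the 36.1% of all genes called higher and 20.5% called lower in Ezh2 null against control, and the 35.6% and 19.4% in double null against Setd2 null. The proteins of the mitochondrial ribosome, made from separate nuclear genes, had 47 of 77 higher and 0 lower in Ezh2 null against control (median 0.55), among them Mrps26 (log2 fold change 1.61) and Mrpl12 (1.48), and 43 higher and 2 lower in double null against Setd2 null. Nucleolar ribosome biogenesis factors had 51 of 67 higher and 1 lower (median 0.88), led by Rrp12 (2.17), which acts in subunit export, Nolc1 (1.80) and Bysl (1.73), and 52 higher and 2 lower in the second comparison. Of the RNA polymerase I machinery, which transcribes ribosomal RNA, 8 of 15 rose and 1 fell in each comparison, and Polr1a (1.34 and 1.32), Polr1b (1.395 and 1.60) and Ubtf (0.93 and 1.05) rose in both. All 5 chaperones of single ribosomal proteins rose in both, such as Heatr3 (1.53 and 1.61), Grwd1 (1.60 and 1.65), which binds Rpl3, and Tsr2 (0.82 and 0.88), which binds Rps26.

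Of 19 tested translation factors whose mRNAs carry TOP tracts, 6 rose (31.6%) and 3 fell (15.8%) in each comparison, near the shares of all genes (36.1% and 20.5%, and 35.6% and 19.4%). Their medians were 0.17 and 0.25, against 0.18 over all genes in both. Eef2, the elongation factor of translocation, rose by 0.80 and 0.86, and Eif4a2, a helicase of initiation, fell by 0.62 and 0.55. Among 14 genes of translation control by mTORC1 8 rose (57.1%, against 36.1% and 35.6% of all genes) and 0 fell in each, including the repressors Pdcd4 (1.65 and 1.82) and Eif4ebp2 (1.39 and 1.64) and the scaffold Eif4g1 (0.95 and 0.93). In Setd2 null against control and in K735R against wild-type Ezh2, 0 genes of any of these 6 lists were called, and in double null against Ezh2 null 1 was, Mrpl51 (0.85, limma adjusted p = 0.0120).

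**Figure D5:**
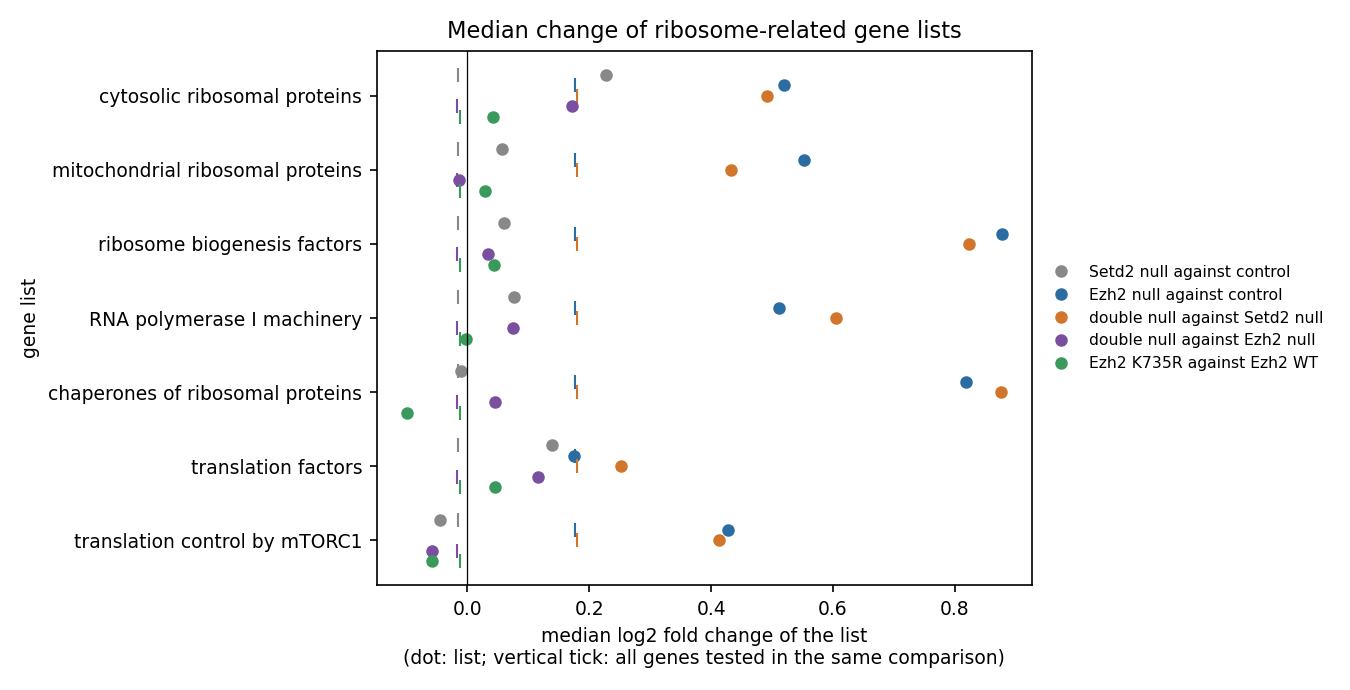
Median log2 fold change of 7 gene lists (dots) in 5 comparisons (colours), with vertical ticks at the median of all genes tested in the same comparison. In both comparisons that test loss of Ezh2 the biogenesis factors and chaperones lie furthest right (0.82 to 0.88), the cytosolic ribosomal proteins lie at 0.52 and 0.49, and the translation factors lie at 0.17 and 0.25, near the ticks.

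Within the set the size of the change in Ezh2 null was not ordered by gene length (Pearson correlation 0.02 with log2 length across 79 genes) and was weakly related to level (0.21 with the mean log2 level, Spearman 0.34). The same held in double null against Setd2 null (0.03 and 0.27). Genes with a larger fold change in Ezh2 null tended to be higher in its second library than in its first (Pearson correlation 0.53 with the second library minus the first, Spearman 0.63). These are descriptions across genes that share libraries.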

How the data were processed

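Total RNA of 12 organoid libraries was sequenced. The submitters' processing notes name mm10, Bowtie and RSEM among their builds and tools. Not given in the sources used here: versions, strand use and how shared reads were divided. The authors deposited RPKM values for the 3-month groups and, judging by their whole numbers, counts for the 2-month groups. RPKM were whole multiples of 1 read for 13744 of 13748 genes above 0 in all 8 libraries (99.971%, within 0.01 reads), which gave reads and gene-model lengths. Count totals and recovered reads are in the report. The 3 chromatin immunoprecipitation samples were not analysed.

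For RPKM, log2(RPKM + 1) of the 11338 genes averaging 1 RPKM or more entered 1 limma 3.58.1 model of 4 groups with trended, robust moderation; fold changes are on that scale, which understates low genes. For counts, edgeR 4.0.16 used TMM scaling, its low-count filter (13203 genes) and the robust quasi-likelihood test, and CPM use TMM-scaled totals. P-values are two-sided, Benjamini-Hochberg adjusted over all genes tested and called at 0.05. The fits were run on simulated counts drawn independently for each gene, which cannot show how they behave where genes move together between libraries. Alternatives were quantile and median-ratio scaling, edgeR on recovered reads, DESeq2 1.42.0, limma on log2 CPM, other filters, a pseudocount of 0.1, no TMM, only the groups compared, a replicate block and each library left out.

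The members and lists were chosen with earlier results of these data known. Named were, per comparison and subunit, the 3 called genes with the largest change in each direction whose libraries did not overlap (or the 3 smallest p), the 3 highest and lowest levels, stalk, 5S and paralog genes, and up to 3 genes per other list by p; Rpl35a, Rps14 and Rpl19, the exceptions in setting calls and Rpl29 were picked with their values known. The alteration shared by all groups is not reported here. R was 4.3.3.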

Additional observations from a re-analysis of the deposited data

Results flagged for a closer look

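Rpl26 was marked because its response to Ezh2 deletion differed with Setd2 intact and with Setd2 deleted, by the interaction term of limma's model (log2 difference 1.21, adjusted p = 0.0351). It stood at 220.0 and 225 RPKM in Ezh2 null and at 552 RPKM or more in the 6 other 3-month libraries. It was the 1 gene of 79 with such a call, and the call was lost without any 1 of 7 libraries. Groups of 2 libraries allow no test for single outlying samples.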

How the results depend on the processing

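The number of ribosomal protein genes called higher in Ezh2 null against control was 25 with median-ratio scaling and 27 with edgeR on recovered reads, and 18 to 40 with 1 library left out; quantile normalization called 2 lower. In double null against Setd2 null it was 15 and 19, and 9 to 62 with 1 library left out; lower were 3 with quantile normalization, 1 with median-ratio scaling, 2 with edgeR on recovered reads (Rpl26 and Rpl3l, the latter near 0) and 0 to 1 with 1 library left out. The interaction gave 0 called higher with no filter on low values and 0 to 1 with 1 library left out. K735R against wild-type Ezh2 gave 0 in each direction under the alternatives that left out no library. Without Ezh2 WT 1 some genes were called, in neither direction at a larger share than over all genes. Double null against Ezh2 null kept 1 higher (Rpl26) and Setd2 null against control 0 under each alternative run. With the replicate number as a block the counts higher were 52 and 45, and no other count moved. The labels do not say that the numbers mark pairs; with 2 pairs a comparison, deviations of same-numbered libraries correlated at 0.105 to 0.358 between groups, 0.108 in the 2-month groups and 0.933 between Ezh2 null and double null. The libraries of those 2 groups thus deviated together by number, a hint from the data and not the design, and pairs were not part of the fits reported; double null against Ezh2 null gave the same count with the block.

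Called named genes kept their direction in each alternative run. With 2 pooled libraries a group the counts move with single libraries; the part of depth was not tested.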
